A study of Rattus norvegicus with 140 samples.

Results

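The transcripts described here encode subunits of the transcription factor AP-1 and their small Maf relatives in 4 organs of heat-stressed rats: Fos, Fosb, Fosl1 and Fosl2 of the Fos family, Jun, Junb and Jund of the Jun family, and Maff and Mafk. They were found by symbol in the platform annotation of Affymetrix Rat Gene 1.1 ST arrays, which gave 9 transcript IDs for 8 of the 9 genes among 29214 IDs in all. Jund had 2 IDs (10787505 and 10790948), and Fosl2 had none by this rule, so it has no value here. The other IDs were 10886031 (Fos), 10719432 (Fosb), 10713045 (Fosl1), 10878112 (Jun), 10806585 (Junb), 10897643 (Maff) and 10760646 (Mafk).

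Male Fischer 344 rats, labelled about 2-3 months old and all implanted with telemetry transmitters, were warmed in an incubator at 37.0°C until the core temperature was 41.8°C, the time called TcMax. Heated rats were killed at TcMax or after 24 h or 48 h of recovery at housing temperature. Control rats, killed at matching times, were never heated; the sample labels give them a short stay in the incubator at ambient temperature, and the methods give none. By the animal tags in the labels, 32 of 37 animals gave arrays of all 4 organs, 2 animals gave 3 organs and 3 gave 2, although the methods describe fewer rats than tags. Each organ was normalized apart, so responses and not levels were set side by side between organs. Groups held 5 or 6 arrays, 139 of 140 in all, and what was measured was whole-organ RNA.

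The 48 h heated heart replicate 4 was left out because its markers went against its label: Sftpc, a lung surfactant protein, read 8695 there and at most 173 on the other heart arrays, and Myh6, the cardiac myosin heavy chain, read 20.6 there and at least 646 on the others. Marker genes of the labelled organ were high on the remaining arrays. Markers of a neighbouring organ varied: the summed intensity of 7 liver genes was high in heated TcMax heart replicates 1 and 2 (4296 and 1119, with 146 to 238 on the other heated hearts and 162 to 335 on the controls) and in heated TcMax lung replicates 1 and 2 (6023 and 2696, with 71.5 to 120 on the other heated lungs and 123 to 517 on the controls). In kidney at TcMax it ran between 623 and 7492 on heated arrays and between 711 and 6068 on control arrays.

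AP-1 is a dimer of basic leucine zipper (bZIP) proteins. Jun proteins pair with each other or with Fos proteins, whereas Fos proteins need a Jun partner to bind DNA, and the dimer recognises the sequence known as the TPA response element. Fos, Jun, Junb and Fosb are immediate-early genes, transcribed within minutes of a growth factor or stress signal from factors already present, and their RNAs are short-lived. Small Maf proteins such as Maff and Mafk carry a bZIP domain but no activation domain, and pair with Nrf2, Bach or Fos proteins.

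The sequence just upstream of the genes is shown for 4 members whose transcripts behaved differently in the heated organs, Maff and Junb, which rose in at least 1 organ, and Jund and Fosl1, which passed the criteria in none. The 250 bases before the annotated start were taken from RefSeq (build GRCr8), where 7 of the 9 members were matched. These were Fosb, Fosl1, Fosl2, Junb, Jund, Maff and Mafk. Fos and Jun were not matched, so no motif was searched for upstream of them. Capitals mark TGACG on either strand (CGTCA is its reverse), the core of the cyclic AMP response element (CRE); a full palindromic CRE, TGACGTCA, holds it on both strands. The windows were chr7:112792537-112792786 (plus strand) for Maff, chr19:40080876-40081125 (plus strand) for Junb, chr16:18769772-18770021 (minus strand) for Jund and chr1:212183635-212183884 (plus strand) for Fosl1, each written 5′ to 3′.
Maff: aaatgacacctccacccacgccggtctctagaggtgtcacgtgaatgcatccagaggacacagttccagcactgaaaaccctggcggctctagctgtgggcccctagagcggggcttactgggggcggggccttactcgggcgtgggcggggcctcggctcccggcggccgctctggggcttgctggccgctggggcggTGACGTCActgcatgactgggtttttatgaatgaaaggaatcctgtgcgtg
Junb: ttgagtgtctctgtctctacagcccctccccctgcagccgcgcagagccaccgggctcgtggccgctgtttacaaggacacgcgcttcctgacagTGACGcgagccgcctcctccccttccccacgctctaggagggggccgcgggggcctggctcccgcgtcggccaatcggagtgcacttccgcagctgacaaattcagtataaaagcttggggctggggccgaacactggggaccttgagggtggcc
Jund: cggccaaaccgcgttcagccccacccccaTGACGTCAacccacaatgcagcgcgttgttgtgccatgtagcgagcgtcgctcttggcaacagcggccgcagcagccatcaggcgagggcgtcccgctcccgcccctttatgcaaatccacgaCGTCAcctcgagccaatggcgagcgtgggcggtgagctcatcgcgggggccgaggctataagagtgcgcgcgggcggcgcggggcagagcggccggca
Fosl1: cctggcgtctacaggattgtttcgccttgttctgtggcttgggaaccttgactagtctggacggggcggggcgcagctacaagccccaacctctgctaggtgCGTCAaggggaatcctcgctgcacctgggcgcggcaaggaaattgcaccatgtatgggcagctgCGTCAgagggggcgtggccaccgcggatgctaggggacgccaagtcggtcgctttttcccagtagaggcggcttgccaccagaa
TGACG stood in 5 of the 7 member windows (Fosl1, Junb, Jund, Maff and Mafk), and in 18.2% of 33469 promoter windows of the same length. TGACGTCA stood in 2 of 7 (Jund and Maff), against 1.59% of all windows. The CArG box, TGANTCA (the TPA response element) and GAANNTTC (2 inverted heat shock element units) were searched on both strands. They stood in 0 of the 7 windows, which do not include Fos or Jun, and in 1.5%, 6.34% and 7.23% of all windows. A match of letters is a description and not a site. TGACG was present both in windows of members that rose (Maff, Junb) and in windows of members that did not pass the criteria (Jund, Fosl1). It was absent from the window of Fosb, which was called in heart and is not shown.

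A transcript was called when limma's moderated test gave an adjusted p (Benjamini-Hochberg over the 14607 tested IDs of the organ) under 0.05 and the change was 2-fold or more, on the scale log2(intensity + 16), heated minus control. Tested IDs were the 50% of an organ's IDs with the larger SD over its arrays, a filter that heart passed for 9 of the 9 member IDs, liver for 8, kidney for 6 and lung for 8; an ID can pass it through the group in which it is high. At TcMax 6 of the 9 IDs were called higher in heart, where 1.64% of tested IDs were. In liver 3 of 9 were called higher (2.45% of tested IDs), in kidney 2 of 9 (1.57%) and in lung 2 of 9 (1.77%). No member was called lower in any organ at TcMax, a call that 0.383% of tested IDs had in heart, against 1.63% (liver), 0.26% (kidney) and 0.63% (lung). With the p threshold alone and no fold minimum, heart had 7 of the 9 IDs higher (3.94% of tested IDs), liver 6 (11.5%), kidney 4 (6.24%) and lung 6 (9.97%). In lung, leaving out heated replicate 4 raised the count of called IDs to 5. The median log2 difference of the 9 IDs at TcMax was 1.13 for heart, 0.62 for liver, 0.42 for kidney and 0.94 for lung, while the median of all tested IDs was -0.05 for heart, -0.11 for liver, -0.07 for kidney and -0.02 for lung.

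Fos, the founding member of the family and a standard marker of cell activation, rose in all 4 organs at TcMax. In heart its intensity was 1105, 644, 1049, 248 and 768 on the 5 heated arrays, against a lowest of 2.15, a median of 12.7 and a highest of 23.3 on the 6 control arrays. Every heated heart lay far above every control heart. The log2 difference was 4.64 ± 0.33 (SE; adjusted p = 3.3e-13), the 4th largest rise of the 14607 IDs tested in heart.

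In liver Fos read 141 at the lowest, 207 at the median and 360 at the highest on 6 heated arrays, against 3.79, 7.55 and 9.56 on 6 control arrays, with a log2 difference of 3.28 ± 0.20 (adjusted p = 1.7e-15). Control livers were all near the low end of the scale, and the groups were far apart. In lung the lowest, median and highest were 108, 191 and 343 on heated arrays, against 26.5, 33.8 and 73.3 on control arrays, and the log2 difference was 2.05 ± 0.25 (adjusted p = 8.49e-08). Every heated lung was above every control lung, the nearest of which, at 73.3, stood apart from the other controls.

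In kidney Fos read 46.2 at the lowest, 110 at the median and 299 at the highest on heated arrays, against 6.61, 23.4 and 30.7 on control arrays, and the log2 difference was 1.82 ± 0.28 (adjusted p = 6.74e-06). The groups did not overlap here either. Within the prefixes of the animal tags, whose meaning the labels do not give, Fos differed by 2.57 (09), 2.05 (11) and 0.83 (12) on the log2 scale, with 2 heated and 2 control kidneys each. The 3 heated kidneys with the highest Fos (299, 153 and 134) were also those with the highest liver marker sums (7492, 7236 and 7453), while the other heated kidneys had Fos of 81.1, 46.2 and 85.3 with sums of 2367, 1335 and 623. The sums of 7492 and 7236 belong to prefix 09, that of 7453 to prefix 11, and those of 1335 and 623 to prefix 12. Among heated kidneys the prefix and the marker sum were thus partly confounded. Among control kidneys with high sums (6068, 4501 and 3767) Fos was 20.5, 6.61 and 26.6. Without the 6 kidney arrays of TcMax with high sums, a setting chosen after the sums were seen, Fos differed by 1.03 on the log2 scale and was no longer called (adjusted p = 0.0563 by limma, 3 heated against 3 control arrays). The part of these markers in the result was not tested. In whole organs, a change in the cells present and a change of RNA per cell cannot be told apart.

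**Figure D1:**
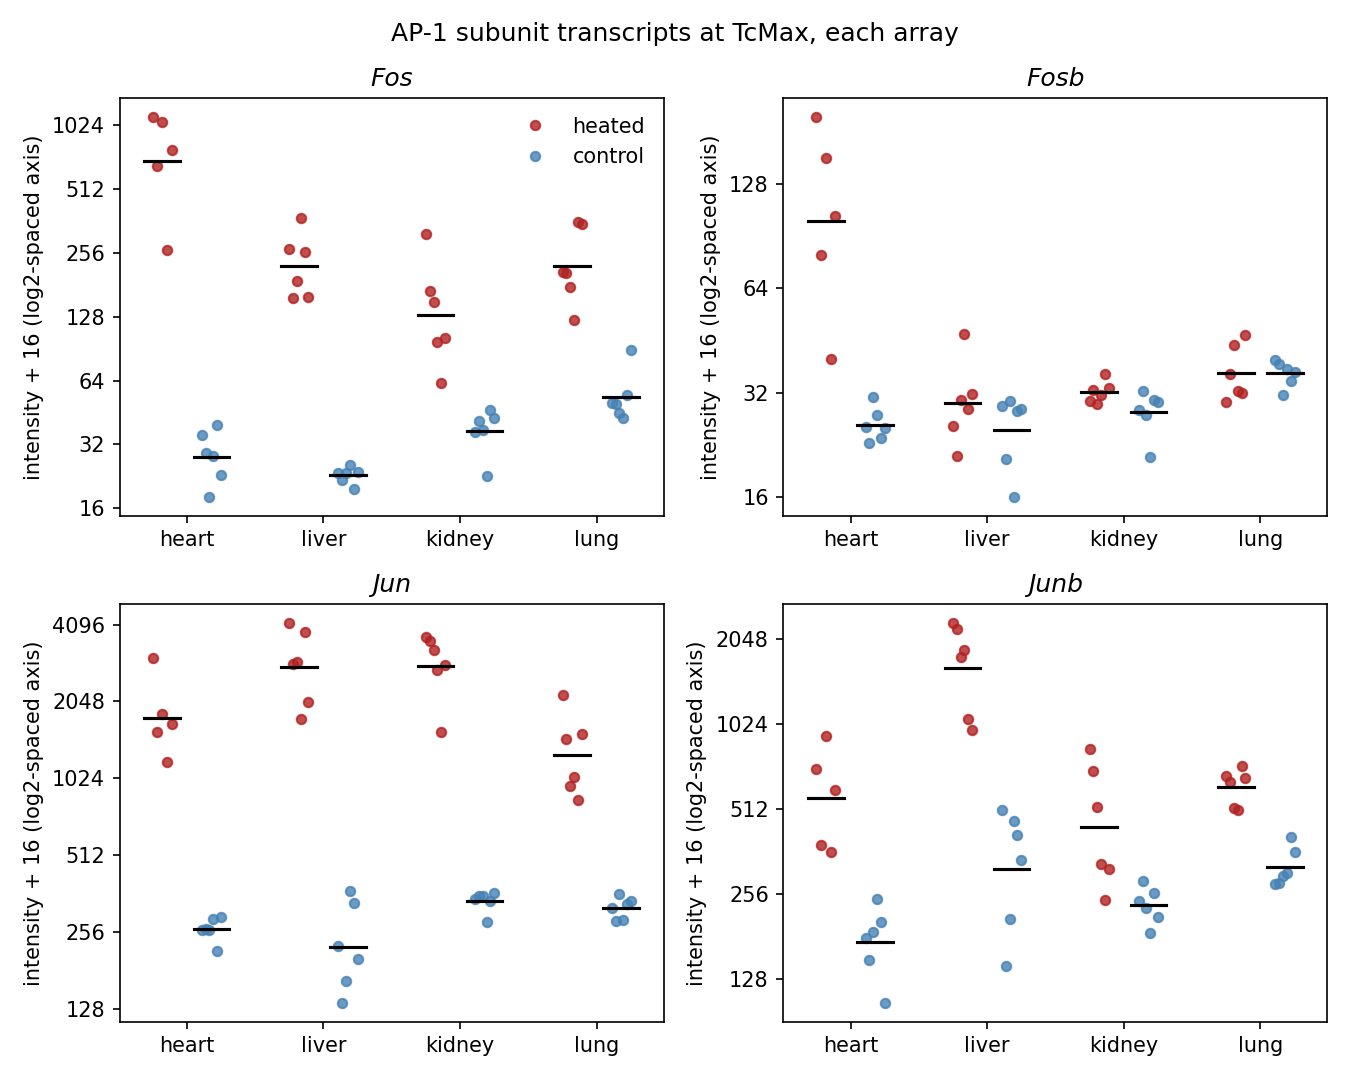
Intensity + 16 of Fos, Fosb, Jun and Junb at TcMax on every array (y axis, log2-spaced), heated arrays left of control arrays in each organ. Points are arrays and bars are means on the log2 scale; Fos and Jun groups lie apart in all 4 organs, Fosb groups only in heart, and Junb groups overlap in kidney.

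Jun, which pairs with itself and with Fos proteins, rose in all 4 organs at TcMax. In heart it read 3015, 1542, 1808, 1173 and 1650 on heated arrays, against 200.3 at the lowest, 246 at the median and 276 at the highest on control arrays. No heated heart was near a control. The log2 difference was 2.75 ± 0.15 (adjusted p = 2.7e-16).

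In liver Jun had its largest difference, 3.65 ± 0.26 on the log2 scale (adjusted p = 9.84e-14), from a lowest, median and highest of 1729, 2875 and 4129 on heated arrays, against 119, 198 and 353 on control arrays. Control livers spread more than control hearts, and still no control overlapped the heated group. In kidney the values were 1543, 3041 and 3661 on heated arrays, against 263, 333 and 347 on control arrays, a log2 difference of 3.07 ± 0.16 (adjusted p = 5.42e-17). In contrast to Fos, Jun stayed called in kidney without the 6 arrays high in liver markers, with a log2 difference of 2.72. In lung Jun read 827, 1235 and 2145 on heated arrays, against 266, 307 and 345 on control arrays, and differed by 1.99 ± 0.15 on the log2 scale (adjusted p = 1e-12). Fos and Jun groups were thus apart in each organ, an arrangement that heart showed at TcMax for 2.85% of tested IDs, liver for 5.21%, kidney for 4.59% and lung for 6.59%.

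Junb, which can act against Jun at some promoters, was called higher in heart and liver. In heart it read 695, 365, 914, 344 and 585 on heated arrays, against 89.6, 168 and 229 (lowest, median and highest) on control arrays, and the log2 difference was 1.69 ± 0.23 (adjusted p = 1.47e-06). In liver it read 963, 1811 and 2317 on heated arrays, against 127, 360 and 493 on control arrays, and differed by 2.36 ± 0.28 on the log2 scale (adjusted p = 1.81e-08). Heated and control arrays were apart in both organs.

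In lung and kidney Junb passed the p threshold and not the 2-fold minimum. Lung values of 492, 635 and 713 on heated arrays, against 263, 285 and 392 on control arrays, did not overlap, and the log2 difference was 0.95 ± 0.11 (adjusted p = 2.24e-08). Kidney values of 229, 407 and 818 on heated arrays, against 171, 220 and 270 on control arrays, did overlap, with a log2 difference of 0.92 ± 0.22 (adjusted p = 0.00314). In kidney the 3 arrays high in liver markers were again the highest heated ones (818, 685 and 504), and without the 6 such arrays of both groups the log2 difference was 0.19; the part of these markers was not tested.

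Fosb, an immediate-early relative of Fos, was called only in heart. Its heated hearts read 184, 64.1, 136, 24.0 and 87.8, against 6.94, 9.34 and 15.0 (lowest, median and highest) in control hearts. The 4th array was the lowest heated heart for Fosb, Fos, Jun and Junb alike, and was still above all controls. The log2 difference was 1.96 ± 0.22 (adjusted p = 2.86e-08). Over the heart arrays as a whole Fosb was dim: a filter on the 25% of IDs with the lowest mean over them removed it from the heart test.

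In the other organs heated and control Fosb values overlapped. The lowest, median and highest were 4.95, 13.6 and 31.3 in heated livers, against 0.0169, 12.5 and 14.2 in control livers, with a log2 difference of 0.26 ± 0.16 (adjusted p = 0.222). In kidney and lung Fosb failed the SD filter and, in the fit of all IDs, differed by 0.19 ± 0.13 and -0.00056 ± 0.13 on the log2 scale (adjusted p = 0.489 and 0.999). The heart response minus the response of another organ, tested within rats, was 1.71 ± 0.44 against liver (adjusted p = 0.048), 1.80 ± 0.34 against kidney (adjusted p = 0.0254) and 1.92 ± 0.32 against lung (adjusted p = 0.00636). With 1 rat left out at a time, the difference from liver was no longer called in 9 of 11 fits, and that from kidney in 5 of 11.

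Fosl1 (also known as Fra-1), a Fos family member without the activation domain of Fos, was not called in any organ at TcMax. Heated arrays overlapped control arrays in all 4 organs, and the log2 differences were 0.08 ± 0.21 (heart), -0.46 ± 0.21 (liver), -0.17 ± 0.12 (kidney) and 0.01 ± 0.15 (lung). In liver heated arrays read 22.1, 44.7 and 48.0 (lowest, median and highest), against 27.6, 65.5 and 85.4 on control arrays (adjusted p = 0.0997).

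Jund, the Jun family member that many resting tissues express, was not called in any organ, and its 2 IDs differed. ID 10790948 passed the p threshold in heart, liver and lung below 2-fold. In heart it read 327, 319, 396, 391 and 366 on heated arrays, against 169, 194 and 238 (lowest, median and highest) on control arrays, with no overlap and a log2 difference of 0.83 ± 0.13 (adjusted p = 1.14e-05). Its log2 difference was 0.62 ± 0.15 in liver (adjusted p = 0.00144) and 0.52 ± 0.12 in lung (adjusted p = 0.00089). In kidney it was 0.34 ± 0.16 (adjusted p = 0.182). ID 10787505 passed the p threshold only in liver, at 0.42 ± 0.12 (adjusted p = 0.00533), and its log2 differences in heart, kidney and lung lay between 0.02 and 0.25. Since the 2 IDs of the gene disagree, no single value is given for Jund.

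Both small Maf transcripts rose at least 2-fold in heart. Maff read 67.3, 50.5, 58.7, 57.9 and 94.3 on heated heart arrays, against 16.3, 21.9 and 30.3 (lowest, median and highest) on control arrays. No values overlapped, and the log2 difference was 1.06 ± 0.13 (adjusted p = 1.56e-07). Without heated replicate 5, the highest, it was 0.94 and under the 2-fold minimum. In lung Maff read 34.4, 63.8 and 73.1 on heated arrays, against 19.6, 23.3 and 24.7 on control arrays, with a log2 difference of 0.94 ± 0.12 (adjusted p = 1.15e-07). In liver and kidney Maff failed the SD filter, and in the fit of all IDs differed by 0.35 ± 0.11 and 0.42 ± 0.10 on the log2 scale (adjusted p = 0.0245 and 0.00291).

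For Mafk, heated and control arrays were apart in all 4 organs. In heart it read 340, 410, 375, 380 and 338 on heated arrays, against 124, 161 and 190 on control arrays, and the log2 difference was 1.13 ± 0.12 (adjusted p = 3.81e-09). In lung it read 365, 429 and 602 on heated arrays, against 198, 210 and 260 on control arrays, and in liver 139, 164 and 194 on heated arrays, against 61.6, 83.9 and 111 on control arrays. The log2 differences were 0.97 ± 0.12 in lung (adjusted p = 5.25e-08), 0.85 ± 0.13 in liver (adjusted p = 4.34e-06) and 0.64 ± 0.10 in kidney (adjusted p = 2.1e-05), all under 2-fold. In kidney Mafk differed by 0.67 without the 6 arrays high in liver markers.

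**Figure D2:**
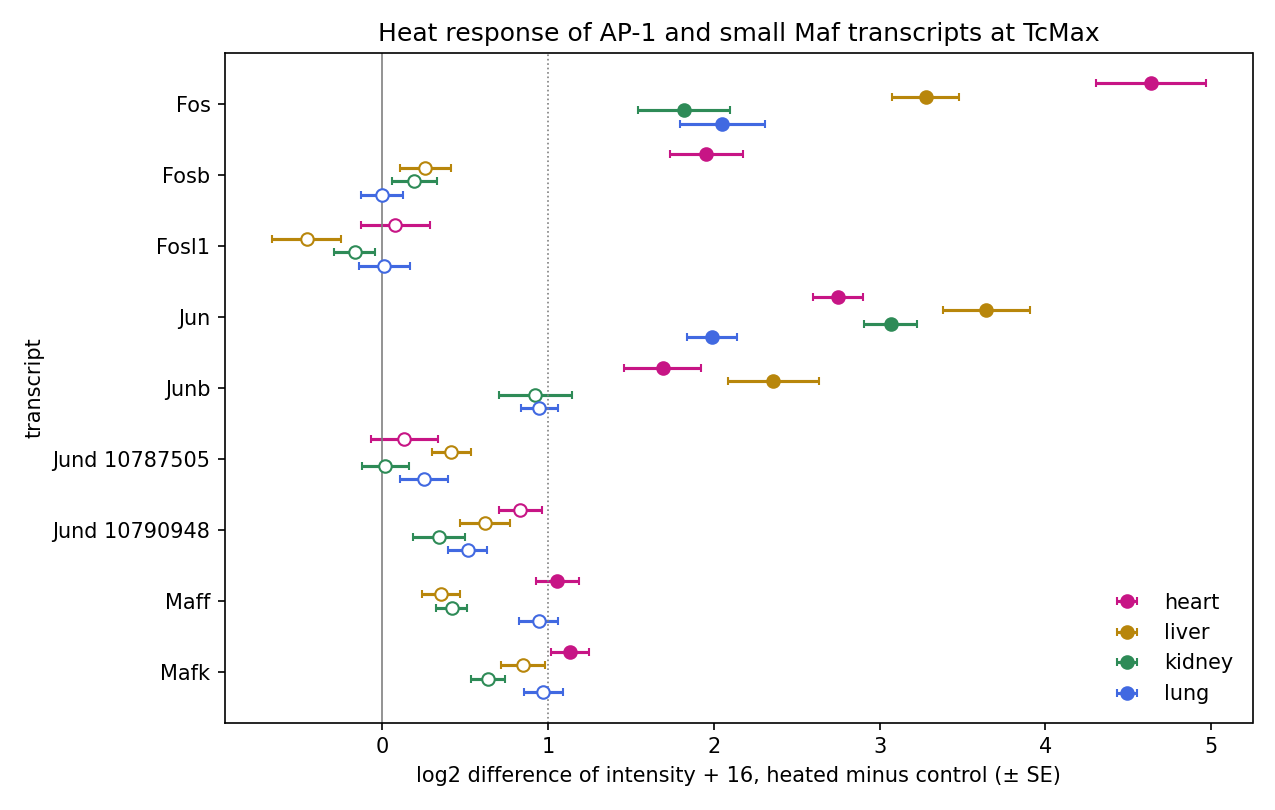
Difference of log2(intensity + 16) at TcMax, heated minus control (x axis, ± SE), for the 9 member IDs (y axis) in 4 organs. Filled points passed the criteria and the dotted line marks 2-fold; Fos and Jun are filled in every organ, Fosb, Maff and Mafk only in heart, and Fosl1 and both Jund IDs in none.

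The organs were then compared for each member, with the response taken as a difference between 2 organs of the same rat. Fos responded more in heart than in kidney, by 2.60 ± 0.30 on the log2 scale (adjusted p = 0.000507), and more than in lung, by 2.72 ± 0.32 (adjusted p = 0.000343). It responded more in liver than in kidney, by 1.46 ± 0.30 (adjusted p = 0.00939), and more than in lung, by 1.23 ± 0.35 (adjusted p = 0.0415). Heart minus liver was 1.26 ± 0.44 for Fos (adjusted p = 0.156) and kidney minus lung -0.23 ± 0.42 (adjusted p = 0.833), and neither passed. Counting all members, 1 of 9 IDs differed between heart and liver (0.997% of tested IDs higher in heart), 2 between heart and kidney (0.265%) and 2 between heart and lung (0.397%), each larger in heart.

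The Jun response was smaller in lung in both comparisons that passed: liver minus lung was 1.65 ± 0.24 (adjusted p = 0.000323) and kidney minus lung 1.08 ± 0.17 on the log2 scale (adjusted p = 0.00444). The other 4 Jun comparisons lay between -0.99 (heart minus liver, adjusted p = 0.0699) and 0.64 (heart minus lung, adjusted p = 0.157) and did not pass. The Junb response was larger in liver than in kidney by 1.44 ± 0.39 (adjusted p = 0.0402) and than in lung by 1.41 ± 0.31 (adjusted p = 0.00911). Of the 9 IDs, 2 differed between liver and kidney (0.784% of tested IDs higher in liver), 3 between liver and lung (0.766%) and 1 between kidney and lung (0.47% higher in kidney). With 1 rat left out at a time, the Fos difference between liver and lung was no longer called in 10 of 12 fits, the Junb difference between liver and kidney in 7 of 12 and the Jun difference between kidney and lung in 1 of 12. No Fosl1, Jund, Maff or Mafk ID passed between any pair of organs.

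Because the tags link organs of a rat, Fos and Jun can be followed in each heated rat, given here as the log2 difference from the mean of the organ's controls and numbered in the order of the animal tags. Rat 1 had the largest Fos value of the group in heart (5.32) and kidney (3.09), and was 3rd in liver (3.49) and in lung (1.96). Its heart, kidney and lung arrays had the highest liver marker sums of the organ's heated TcMax arrays (4296, 7492 and 6023). The part of these markers in the rat's values was not tested. Rat 4 had the smallest Fos value in heart (3.24) and lung (1.21), and the largest in liver (4.03). Rat 5, without a heart array, had the smallest Fos value in kidney (0.75) and the largest in lung (2.75). The rats' order for Fos thus changed between organs.

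For Jun, rat 1 was the highest in heart (3.53), kidney (3.45) and lung (2.77) and 2nd in liver (4.10). Its heart, kidney and lung arrays were those highest in liver markers. Rat 5 was the lowest in kidney (2.21) and lung (1.41), and rat 4 in heart (2.18) and liver (2.97). Each of the 6 heated rats had positive Fos and Jun values in each of its organs.

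**Figure D3:**
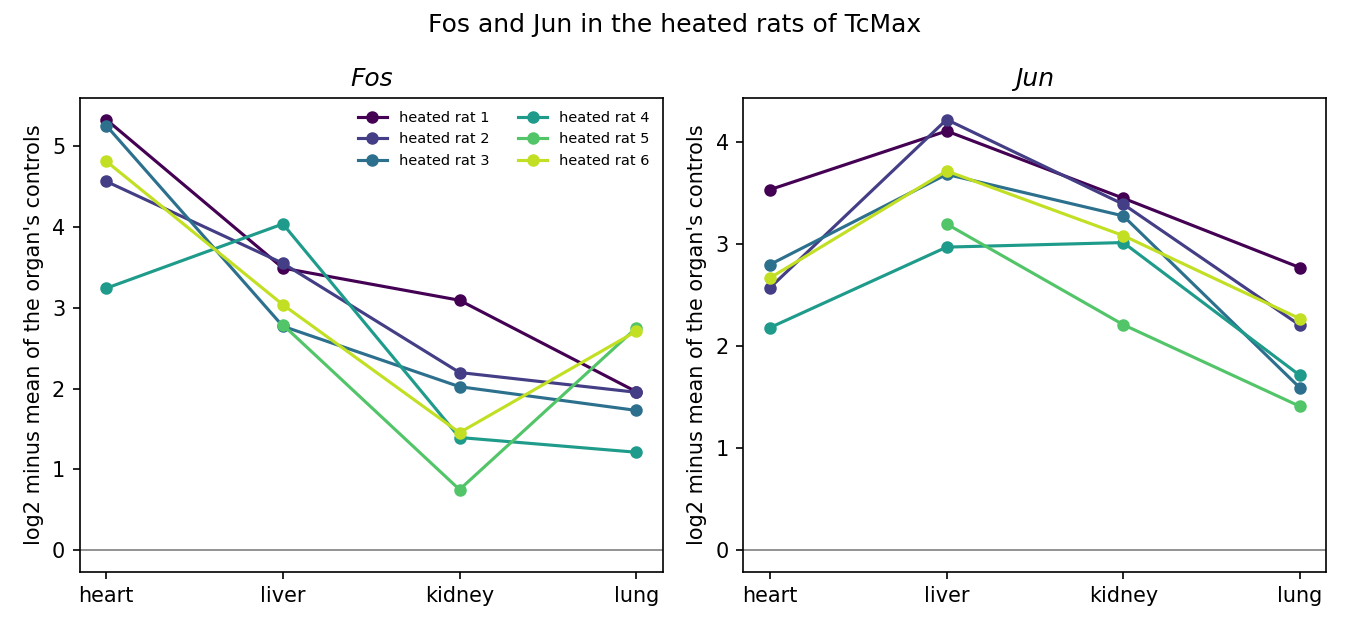
Fos and Jun in the heated rats of TcMax: log2(intensity + 16) minus the mean of the organ's control arrays (y axis) in 4 organs (x axis), 1 line per rat. All points are above 0; lines for Fos cross between liver, kidney and lung, and rat 5 has no heart array.

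No member was called at 24 h or 48 h in any of the 4 organs by limma, and plain least squares called 0 as well. Of 72 comparisons of an ID by limma, 0 had an adjusted p under 0.05. An unadjusted p under 0.05 was found in 7 of the 72, and in 7.55% of the recovery differences of all IDs. The share of tested IDs called in either direction was itself low, at 24 h 0.0479% for heart, 0.24% for liver, 0.00685% for kidney and 0% for lung, and at 48 h 0.0274% for liver, 0.0137% for kidney and 0% for lung. In heart at 48 h 2.08% of tested IDs were called.

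For example, Jun read 196, 237 and 251 (lowest, median and highest) in heated hearts at 24 h, against 193, 223 and 260 in control hearts, and 301, 385 and 501 in heated kidneys, against 276, 346 and 408 in control kidneys. Fos read 4.68, 9.22 and 52.3 in heated livers at 24 h, against 6.87, 9.82 and 15.6 in control livers, where 1 heated array (replicate 5) stood above all others. The ranges of both genes overlapped in every organ at 24 h and 48 h.

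Junb in liver at 24 h came closest to a call. It read 152, 392 and 551 (lowest, median and highest) in heated livers, against 135, 173 and 200.2 in control livers, with 1 heated array (replicate 4) inside the control range. The log2 difference was 0.97 ± 0.28 (adjusted p = 0.0719 by limma), and without that array it was 1.19 and was called (adjusted p = 0.0108). That array's tag begins with 09, which 2 of 6 heated and 4 of 6 control livers of 24 h carry. Within the prefixes Junb differed by 0.28 (09), 1.25 (11, 1 heated against 1 control array) and 1.25 (12, 3 heated against 1 control), and with the prefix as a block by 0.75 (adjusted p = 0.139). Mafk in liver at 24 h differed by 0.40 ± 0.13 (adjusted p = 0.13), from 80.5, 97.3 and 131 in heated livers, against 47.4, 77.9 and 87.1 in control livers. Both Jund IDs had negative differences there, -0.28 ± 0.12 and -0.32 ± 0.15 on the log2 scale (adjusted p = 0.237 and 0.32). Fosl1 in liver at 48 h was the only member with groups apart in recovery: 41.0, 49.8, 45.1, 37.4 and 44.3 on heated arrays, against 31.0, 33.9, 26.5, 23.2 and 31.6 on control arrays (log2 difference 0.40 ± 0.23, adjusted p = 0.637), where 1.33% of tested IDs had every heated array above every control.

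In heart at 48 h, Fos read 8.28, 15.1, 105, 65.1 and 11.9 on heated replicates 1, 2, 3, 5 and 6, against 8.20, 12.2 and 16.02 (lowest, median and highest) on control arrays. Replicates 3 and 5 were far above the rest, and the others lay inside the control range. The log2 difference was 0.72 ± 0.33 (adjusted p = 0.176). Junb showed the same arrays on top, with 366 and 315 on replicates 3 and 5 and 176, 214 and 116 on the others, against 134, 149 and 199 on control arrays (log2 difference 0.49 ± 0.23, adjusted p = 0.196). Those 2 arrays also had the highest summed intensity of 9 leukocyte markers, 4648 and 4865, with 1121 to 1395 on the other heated hearts and 1047 to 1485 on control hearts. Without both, Fos differed by -0.013 and Junb by 0.09 on the log2 scale; the part of leukocytes in the values was not tested.

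**Figure D4:**
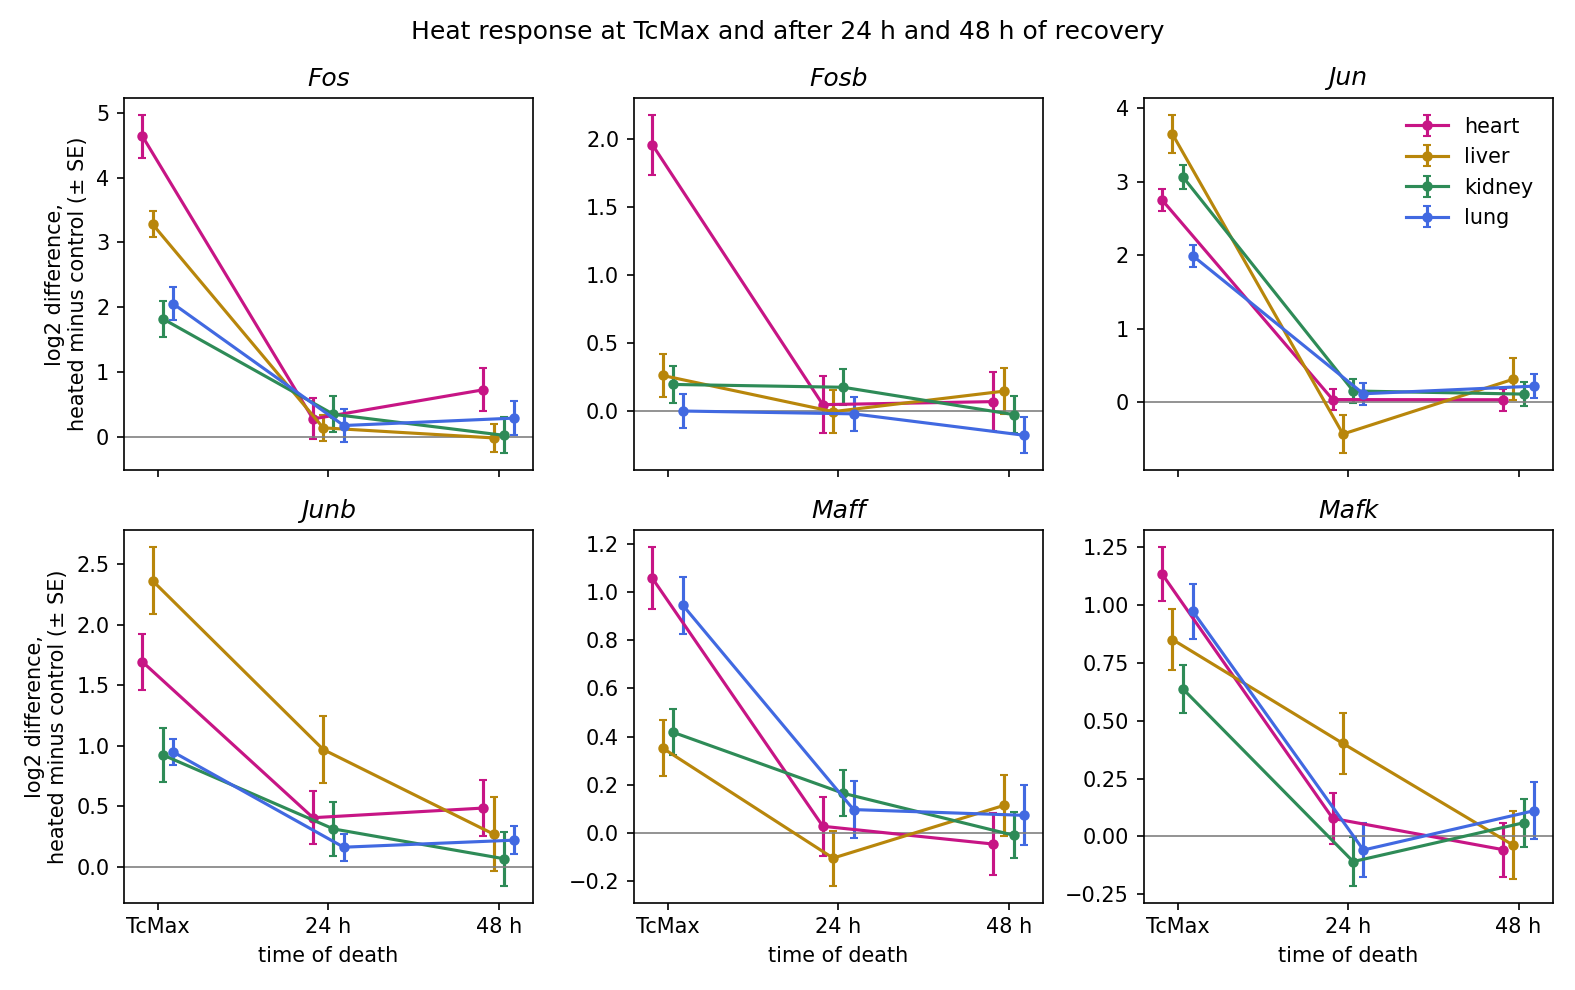
Log2 difference, heated minus control (y axis, ± SE), of Fos, Fosb, Jun, Junb, Maff and Mafk at TcMax, 24 h and 48 h (x axis) in 4 organs; each panel has its own y scale. The values that passed the criteria all lie at TcMax, and Junb in liver at 24 h is the largest later one of the genes drawn.

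The response at TcMax was set against the mean of the 24 h and 48 h responses in a test of the difference itself. In heart 6 of 9 IDs differed (1.48% of tested IDs were called higher at TcMax): Fos by 4.14 ± 0.40, Jun by 2.71 ± 0.18, Fosb by 1.90 ± 0.27, Junb by 1.24 ± 0.28, Mafk by 1.12 ± 0.14 and Maff by 1.06 ± 0.16 on the log2 scale. In liver 3 of 9 differed (2.77%): Jun by 3.70 ± 0.32, Fos by 3.22 ± 0.25 and Junb by 1.74 ± 0.34. In kidney 2 of 9 differed (1.31%), Jun by 2.93 ± 0.20 and Fos by 1.64 ± 0.34. In lung 2 of 9 differed (1.78%), Fos and Jun by 1.82 each (SE 0.31 for Fos and 0.19 for Jun). The responses of Fosl1 and of both Jund IDs did not pass in any organ.

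Other bZIP proteins that can pair with AP-1 subunits were counted from a list of 26 genes, 23 of which had an ID. At TcMax heart had 5 of them called higher (12 of the 23 passed the SD filter there, and 1.64% of all tested IDs were called higher), liver 6 (16 passed, 2.45%), kidney 6 (11 passed, 1.57%) and lung 5 (14 passed, 1.77%). In liver 1 was called lower, where 1.63% of tested IDs were: Maf (-1.41 ± 0.12 on the log2 scale). The median difference over the 23 was between 0.13 and 0.22 on the log2 scale in the 4 organs. Atf3, a stress-induced repressor that pairs with Jun, had log2 differences of 5.78 ± 0.22 (heart), 5.52 ± 0.46 (liver), 4.32 ± 0.28 (kidney) and 2.61 ± 0.16 (lung). Ddit3 (CHOP, of the unfolded protein response), Crem (a cyclic AMP response modulator) and Cebpb (a C/EBP factor of the acute phase response) were each called higher in all 4 organs, by 1.02 to 1.85 on the log2 scale. By limma 0 of 184 differences of the list were called at 24 h or 48 h, and 17 had an unadjusted p under 0.05, as had 7.55% of the differences of all IDs.

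Upstream of AP-1, mitogen-activated protein kinases phosphorylate Jun and the factors that switch Fos on, and these act on protein and not on transcript level. Of 25 listed kinases and partners, 22 had an ID. At TcMax 2 were called, both higher in liver, where 13 passed the SD filter and 2.45% of all tested IDs were called higher. They were Rps6ka3 (RSK2, below ERK) at 1.23 ± 0.16 and Mapkapk2 (below p38) at 1.05 ± 0.12 on the log2 scale. Of the 88 differences of the 22 at TcMax, 43 had an unadjusted p under 0.05, 12 higher and 31 lower, against 9.03% higher and 12.9% lower over all IDs. The median difference over the 22 lay between -0.21 and 0.03 on the log2 scale in the 4 organs. Of 16 listed factors that bind the Fos and Jun promoters, 12 had an ID, with medians between -0.27 and -0.0057 on the log2 scale at TcMax. By limma 0 of their 48 differences at TcMax and 0 of 96 in recovery were called; at an unadjusted p under 0.05, 25 at TcMax (9 higher and 16 lower) and 10 in recovery passed. Over all IDs 21.9% of differences passed at TcMax and 7.55% in recovery.

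Among 24 listed genes known as AP-1 targets, 21 had an ID. At TcMax heart had 5 of them called higher (17 passed the SD filter there, and 1.64% of all tested IDs were called higher), liver 3 (13 passed, 2.45%), kidney 3 (14 passed, 1.57%) and lung 3 (16 passed, 1.77%). Of 84 differences 0 were called lower by limma. At an unadjusted p under 0.05, 24 were higher and 12 lower, against 9.03% higher and 12.9% lower over all IDs at TcMax. The median log2 difference over the 21 was 0.27 in heart and between -0.02 and 0.15 in the other organs. Hbegf, an EGF family ligand, rose by 2.96 ± 0.25 in heart and 1.44 ± 0.17 in liver on the log2 scale, and Ptgs2, the inducible cyclooxygenase, rose in heart (1.84 ± 0.53), kidney (1.71 ± 0.22) and lung (1.30 ± 0.24). Cdkn1a, the p21 cell cycle inhibitor, rose in heart, liver and kidney by 1.04 to 1.52. Hmox1, heme oxygenase 1 and also a target of Nrf2 and small Maf dimers, rose in all 4 organs by 2.95 to 3.85. In heart at 48 h 4 of the 21 were called higher (17 passed the SD filter, and 2.08% of all tested IDs were called in either direction). They were Timp1 (1.89 ± 0.47), Plau (1.52 ± 0.34), Hmox1 (1.37 ± 0.35) and Plaur (1.05 ± 0.25). Replicates 3 and 5 of that heated group were high in leukocyte markers, and the part of those markers was not tested. In liver at 24 h Mt1, a metallothionein, was called (2.25 ± 0.57), where 0.24% of all tested IDs were called in either direction.

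The transcripts whose 12 differences (4 organs at 3 times) were most like those of Fos among 3169 single-gene IDs were Nr4a2 (Pearson r = 0.974), Stim2 (0.971), Nr4a1 (0.966), Tsc22d2 (0.960) and Hbegf (0.952). The 3169 IDs were those that passed the SD filter in all 4 organs, without the members. Nr4a1 and Nr4a2 are immediate-early orphan nuclear receptors. The closest to Jun were Banp (0.977), Swt1 (0.977), Dnajb4 (0.976), Zfand2a (0.976) and Dusp8 (0.974), where Dnajb4 encodes an HSP40 co-chaperone and Dusp8 a phosphatase of the Jun kinases. The 12 differences share arrays and rats and are dominated by TcMax, so the r values are descriptions only.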

How the data were processed

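RNA of 4 organs was hybridised to Affymetrix Rat Gene 1.1 ST arrays. The authors summarised each organ's arrays separately with exon-level iterPLIER (Affymetrix Expression Console 1.1, library RaGene-1_1-st-v1, rn4 annotation); the deposited intensity values are linear and without the offset of 16 that the methods add. The number of arrays limits the precision.

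Heat was set against the time-matched control on log2(intensity + 16), with 1 limma 3.58.1 model per organ that held its 6 groups and moderated the variances (R 4.3.3). The 50% of IDs with the larger SD were tested and p-values adjusted over them (14607 an organ); an ID outside them is given from a fit of all IDs. Groups came from the labels, and 37 animal tags matched organs of the same rat for the comparisons between organs. The 48 h heated heart replicate 4 entered no comparison. The platform annotation gave 1 symbol to 18644 IDs, several to 962 and none to 9608. The fit was tested on simulated data. Alternatives were all IDs, a filter on dim IDs, an offset of 1, quantile normalization, plain least squares, no fold minimum, blocks, fits of the 2 groups compared, the left-out array put back, and each array left out in turn.

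The members and gene lists were chosen with earlier results of these data known. Named beside the members are up to 4 genes a list with the largest mean TcMax difference among those called, and the 5 genes most like Fos and Jun; Maf, Timp1, Plau, Plaur and Mt1 were named after their values were seen. Figures used Python 3.11.15 and matplotlib 3.10.9.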

Additional observations from a re-analysis of the deposited data

Results flagged for a closer look

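Arrays far from the rest of their group were sought by Dixon's test on the log2 scale in 216 groups of an ID, and 17 stood out; chance alone gives about 1 in 20 groups. In heart these were Mafk at 24 h (control replicate 6, intensity 138), and at 48 h Fosl1 (heated replicate 3, 32.9), Jund 10790948 (heated replicate 6, 161) and Fosb (control replicate 6, 3.61). In liver they were Fosl1 (heated replicate 6, 22.1) and Jund 10790948 (control replicate 6, 112) at TcMax, Fos (heated replicate 5, 52.3) and Mafk (control replicate 6, 47.4) at 24 h, and Mafk at 48 h (control replicate 1, 110). In kidney at TcMax heated replicate 5 was low for Jun (1543), and control replicate 4 was low for Fos (6.61), Fosb (4.92) and Jun (263) alike; at 24 h heated replicate 4 was high for Maff (44.5). In lung they were Fos at TcMax (control replicate 6, 73.3), and at 24 h Fos (heated replicate 1, 59.8) and Junb (control replicate 6, 235).

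The response differed between TcMax and the mean of both recovery times, on the log2 scale, in heart for Fos (4.14), Jun (2.71), Fosb (1.90), Junb (1.24), Mafk (1.12) and Maff (1.06), in liver for Jun (3.70), Fos (3.22) and Junb (1.74), in kidney for Jun (2.93) and Fos (1.64), and in lung for Fos (1.82) and Jun (1.82). Between organs at TcMax it differed for Fosb (heart minus liver 1.71, heart minus kidney 1.80, heart minus lung 1.92), Fos (heart minus kidney 2.60, heart minus lung 2.72, liver minus kidney 1.46, liver minus lung 1.23), Junb (liver minus kidney 1.44, liver minus lung 1.41) and Jun (liver minus lung 1.65, kidney minus lung 1.08).

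On the left-out 48 h heated heart replicate 4, high in lung markers and low in heart markers, Fos (84.5), Fosb (17.6), Jun (432), Junb (415), Jund 10790948 (401), Maff (42.8) and Mafk (279) were above every 48 h control heart. Fosl1 (14.3) and Jund 10787505 (86.0) were not. The share of all IDs above every control heart on this array was not counted, so these values are descriptions only.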

How the results depend on the processing

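Without a fold minimum the count of member IDs called at TcMax was 6 (liver), 4 (kidney) and 6 (lung), and that of IDs unlike at TcMax and in recovery 6 in liver and 6 in lung. An offset of 1 gave 4 in lung at TcMax, 0 for heart minus liver, 1 for heart minus kidney and 1 for liver minus kidney. Testing all IDs gave 0 for heart minus liver and 1 for liver minus kidney. Plain least squares gave 0 for heart minus liver and 1 each for heart minus kidney, heart minus lung, liver minus kidney and liver minus lung. With the tag prefix as a block heart minus liver was 0, and with quantile normalization kidney minus lung was 0. Without the 6 kidney arrays high in liver markers the kidney count at TcMax was 1. The settings that leave out arrays high in liver or leukocyte markers were chosen after seeing the data. The causes were not tested.

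Leaving out each array or rat in turn gave at TcMax 5 to 6 IDs (heart), 3 (liver), 2 to 3 (kidney) and 2 to 5 (lung, 5 without heated replicate 4), 0 to 1 in liver at 24 h (Junb), 0 to 2 for heart minus liver, 1 to 2 for heart minus kidney, 1 to 2 for liver minus kidney, 2 to 3 for liver minus lung and 0 to 1 for kidney minus lung. Signs near 0 turned. Over single arrays left out, Fosb in lung ran between -0.074 and 0.054 (0.068 without both heated arrays high in liver markers), Fosl1 in lung between -0.11 and 0.098 (-0.00043 with an offset of 1), Fosl1 in heart between -0.041 and 0.20, Jund 10787505 in heart between -0.10 and 0.32 and in kidney between -0.053 and 0.080. Without the kidney arrays high in liver markers Jund 10787505 was -0.11 and Jund 10790948 -0.025, and without both hearts high in leukocyte markers Fos at 48 h was -0.013. Maff in heart missed 2-fold without heated replicate 5 (0.94), Mafk in heart failed the SD filter with an offset of 1, and Fosb in heart failed the filter on dim IDs.

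The labels give groups the same replicate numbers, which were not taken to pair rats. Of 68 same-numbered pairs 28 had deviations correlated over 0.1 (-0.56 to 0.61), and 0 of 12 comparisons had all pairs over 0.1. These correlations cannot decide whether the numbers link rats. Same-numbered arrays shared the tag prefix throughout heart, kidney and lung at TcMax, and not throughout in liver. With the replicate block the counts at TcMax were 6 (heart), 3 (liver), 2 (kidney) and 2 (lung), as without it, and it changed no other count of calls by over 1.5 times. Depth is not defined for arrays; values near the offset of 16 (Fosb, Fos in controls) have compressed differences.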
